A study of Mus musculus with 9 samples.

Results

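The genes described here are 8 genes of the ventral forebrain and its GABA interneurons: Dlx1, Dlx2, Dlx6, Gad1, Gad2, Lhx8, Sp8 and Npas1. They were chosen by name, all 8 were found among 14771 named genes of the table, and each is given per library. Messenger RNA was sequenced from 9 mouse libraries. There were 3 libraries of olfactory bulb tumour cells (OB_257, OB_287 and OB_295) and 3 of brainstem tumour cells (BS_287, BS_295 and BS_296), both labelled Foxr2 overexpression and p53 cko, from mice of a mixed 129 and C57BL/6 background. The other 3 were astroglia (AG_1, AG_2 and AG_3) of strain C57BL/6, whose genotype label reads p53 DN with an Nf1 shRNA. Strain, p53 allele, Nf1 shRNA and Foxr2 differ together between tumour cells and AG, so that their parts cannot be told apart. The labels give no age, no culture history and no promoter or Cre driver, and are silent on whether the 3 libraries of each group stand for different mice or different cultures. The p-values are thus set by the spread between libraries, part or all of which could be technical.

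The ganglionic eminences of the ventral forebrain give rise to most GABA interneurons of the cortex and olfactory bulb. There the Dlx homeodomain factors act above the interneuron programme, and the mature cells make GABA with the glutamate decarboxylases Gad1 and Gad2. Human neuroblastoma of the central nervous system with FOXR2 activation is known for a signature of this lineage.

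Reference promoters are shown for the pairs whose values are set against each other, Dlx1 with Dlx2 and Gad1 with Gad2, and for Sp8, whose limma change against AG was the largest of the 8 genes in size. They come from RefSeq on GRCm38.p6, cover 250 bases before to 50 after a transcript start, and matched 7 of the 8 genes with 9 entries. Dlx6 had no entry. The entry of Sp8 shown is the one of 3 that holds a motif. Capitals mark 2 motifs: TAATTA, a core bound by homeodomain factors, and CACGTG, the E-box bound by MYC and its partners, which was searched for after the Dlx2 sequence had been seen.
Dlx1 promoter, chr2:71529195-71529494, + strand: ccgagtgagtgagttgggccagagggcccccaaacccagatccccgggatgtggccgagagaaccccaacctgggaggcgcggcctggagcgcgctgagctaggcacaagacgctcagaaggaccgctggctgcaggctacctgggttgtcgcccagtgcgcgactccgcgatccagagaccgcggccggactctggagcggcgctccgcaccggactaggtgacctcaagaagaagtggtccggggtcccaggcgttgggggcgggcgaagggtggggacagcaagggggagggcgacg
Dlx2 promoter, chr2:71546705-71547004, - strand: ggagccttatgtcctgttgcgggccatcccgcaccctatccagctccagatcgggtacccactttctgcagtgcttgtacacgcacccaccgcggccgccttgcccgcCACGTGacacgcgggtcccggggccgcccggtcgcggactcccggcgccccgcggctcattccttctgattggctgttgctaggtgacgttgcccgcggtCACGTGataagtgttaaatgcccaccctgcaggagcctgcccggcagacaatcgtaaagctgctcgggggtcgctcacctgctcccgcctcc
Gad1 promoter, chr2:70561879-70562178, + strand: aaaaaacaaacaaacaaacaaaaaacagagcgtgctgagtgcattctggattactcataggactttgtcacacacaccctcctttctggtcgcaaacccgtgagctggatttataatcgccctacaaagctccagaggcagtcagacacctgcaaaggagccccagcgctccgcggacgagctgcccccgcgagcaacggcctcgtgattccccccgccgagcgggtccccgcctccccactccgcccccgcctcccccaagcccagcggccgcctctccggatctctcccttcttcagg
Gad2 promoter, chr2:22622077-22622376, + strand: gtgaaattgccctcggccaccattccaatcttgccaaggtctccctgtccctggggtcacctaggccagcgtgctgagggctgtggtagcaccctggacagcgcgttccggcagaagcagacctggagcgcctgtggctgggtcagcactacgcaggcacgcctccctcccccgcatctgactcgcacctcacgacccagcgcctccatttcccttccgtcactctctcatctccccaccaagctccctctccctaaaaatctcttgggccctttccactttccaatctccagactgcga
Sp8 promoter, chr12:118847309-118847608, + strand: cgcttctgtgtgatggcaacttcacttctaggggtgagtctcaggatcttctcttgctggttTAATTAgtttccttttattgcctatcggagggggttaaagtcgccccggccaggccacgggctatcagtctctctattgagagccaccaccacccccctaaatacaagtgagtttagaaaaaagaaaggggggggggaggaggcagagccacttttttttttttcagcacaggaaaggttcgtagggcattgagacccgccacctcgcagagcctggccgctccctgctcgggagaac
The motif CACGTG occurred 2 times in the Dlx2 promoter and in none of the other 8 entries, and 7.15% of 32851 promoters of the same length hold it. TAATTA occurred once, in Sp8, against 5.29% of all promoters. The proneural E-box CAGCTG (16.3% of all promoters) and the forkhead core TGTTTAC, read GTAAACA on the other strand (3.65% of all promoters), were not among the letters of these 9 windows. Both strands were searched and no motifs overlapped. The Dlx1 and Dlx2 windows hold 27 and 29 CG pairs, Gad1 21 and Gad2 14, beside a median of 7 in all promoters.

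The libraries held 11300273 to 13927771 reads in OB, 12680832 to 15282668 in BS and 14987773 to 19868282 in AG. Foxr2, the overexpressed forkhead factor, had 4505 to 6814 normalized reads in OB and 7377 to 12567 in BS, against 0 to 0.986 in AG, as the labels say. OB_257 and BS_287 stood apart from the other tumour libraries: their correlations with the other 4 ran from 0.843 to 0.919 over the genes tested and were 0.841 with each other, against 0.942 to 0.959 among those 4. Astrocyte markers were uneven in AG. Gfap, Aqp4 and Aldh1l1 were at 0.834 to 5.91 normalized reads there. All 3 have several annotated transcripts, a class of genes whose median value in this table is low, so this is not read as low expression. Slc1a3 (753 to 855 normalized reads in AG), Gja1 (4961 to 5396) and Sox9 (2328 to 2947) were present there, and S100b was at 25.0 to 27.2.

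Values below are normalized reads, that is reads divided by 1 size factor per library, and changes are log2(normalized reads + 1) with a standard error. Calls are limma calls with an adjusted p under 0.05, over the 10576 genes with 10 or more normalized reads in 3 or more libraries. All 8 genes passed this filter. Lhx8 and Sp8 passed through AG alone and Gad2 through AG and BS_296, while Gad1 and Dlx6 passed through tumour libraries alone, so that these genes had to differ in some libraries to be tested. Levels are compared between libraries and not between genes, since lengths differ. In these bulk samples, fewer cells of a type and less RNA per cell cannot be told apart.

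The 8 genes did not change as a group. Gad1 and Npas1 were higher in both kinds of tumour cells than in AG, while Gad2, Lhx8 and Sp8 were lower in both and Dlx2 was lower in BS. In OB against AG, 5 of the 8 were called, 2 higher and 3 lower, beside 34.9% of all genes called (16% higher and 19% lower, or 1687 and 2008 genes). In BS against AG, 6 of the 8 were called, 2 higher and 4 lower, beside 35.1% (15.6% higher and 19.5% lower, or 1652 and 2060 genes). The split over all genes depended on scaling: upper-quartile rescaling gave 2355 higher and 1575 lower in OB, and 2283 higher and 1577 lower in BS. The median log2 change of the 8 genes was -2.01 in OB and -3.03 in BS, beside -0.01 and -0.03 over all genes tested. Both comparisons use the same AG libraries, so that their likeness is no independent result. In OB against BS, limma called 0 of the 8 genes and 0% of all 10576 genes (1019 genes had an unadjusted p under 0.05, and DESeq2 called 233).

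**Figure D1:**
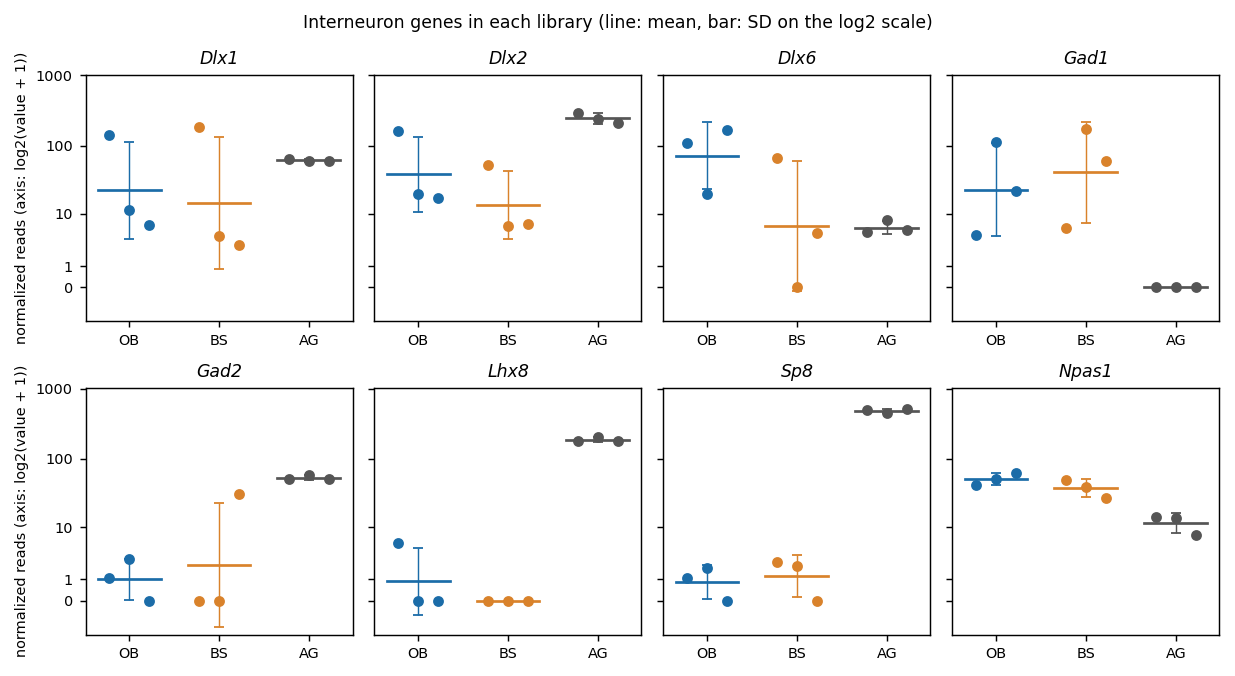
Normalized reads of the 8 interneuron genes (vertical axis, log2(value + 1) scale) in the libraries of olfactory bulb tumour cells (OB), brainstem tumour cells (BS) and astroglia (AG), with points for libraries in the order of their numbers, lines for means and bars for SD, both of the log2 values, n = 3 each. Sp8 and Lhx8 lie between 179.7 and 514 in AG and at or below 5.53 in every tumour library, Gad1 is at 0 in AG, and Dlx1 spreads widely within both tumour groups.

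Among the transcription factors, Sp8 and Lhx8 changed most by limma. Sp8, a zinc-finger factor of the dorsal lateral ganglionic eminence and of olfactory bulb interneurons, had 1.11, 1.90 and 0 normalized reads in OB_257, OB_287 and OB_295 and 2.52, 2.13 and 0 in BS_287, BS_295 and BS_296, against 499, 453 and 514 in AG_1, AG_2 and AG_3. Every tumour library was near 0 and far below every AG library, olfactory bulb tumour cells included. The table holds 1 of 3 annotated transcripts of Sp8, so that these values compare that transcript between libraries and give no level of the whole gene. The 3 reads in OB against 1531 in AG, scaled for depth, make Sp8 469-fold lower in OB, with an exact (Clopper-Pearson) 95% counting interval of 160.0 to 2274. In limma the change of Sp8 was -8.06 ± 0.59 (SE) in OB (adjusted p = 2.86e-05) and -7.78 ± 0.59 in BS (adjusted p = 3.11e-05), and it was called under every alternative run.

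Lhx8, a LIM homeodomain factor of the medial ganglionic eminence needed for forebrain cholinergic neurons, had 5.53, 0 and 0 normalized reads in OB and 0 in all 3 BS libraries, against 180.1, 206 and 179.7 in AG. Its only reads in tumour cells were 5 reads in OB_257. It fell by 6.66 ± 0.69 in OB (limma adjusted p = 0.000176) and was at least 65.2-fold lower in BS against a floor of 3 reads per library (limma adjusted p = 8.85e-05). Both calls held under every alternative run. In BS, where Lhx8 had no reads, its change exceeded that of Sp8 by edgeR (-10.55 for Lhx8 and -8.11 for Sp8), so the order of these 2 genes depends on the fit.

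Dlx1 and Dlx2, homeodomain factors encoded side by side and needed together for interneuron migration in the mouse, divided the tumour libraries rather than the sites. Dlx1 had 143, 11.4 and 6.52 normalized reads in OB_257, OB_287 and OB_295 and 183, 4.27 and 2.96 in BS_287, BS_295 and BS_296, against 64.2, 60.1 and 59.9 in AG. OB_257 and BS_287 lay above AG, and the other 4 tumour libraries below it. The change of Dlx1 was -1.39 ± 1.55 in OB (limma adjusted p = 0.518) and -2.00 ± 1.55 in BS (limma adjusted p = 0.351), neither of which passed. Without BS_287 the change in BS was -3.77 and was called (limma adjusted p = 0.0361). Without OB_257 the change in OB did not pass (-2.69, limma adjusted p = 0.199). With BS_287 and OB_257 both left out, chosen after their values were seen, Dlx1 was called lower in OB (change -2.69, limma adjusted p = 0.00115) and in BS (change -3.77, limma adjusted p = 0.000232). As the libraries left out were the only tumour libraries above AG, that choice set the direction, and these calls decide nothing. edgeR gave a change of 0.12 in BS (adjusted p = 0.959).

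Dlx2 had the same leading tumour libraries, with 162, 20.0 and 17.4 normalized reads in OB_257, OB_287 and OB_295 and 52.0, 6.40 and 6.90 in BS_287, BS_295 and BS_296, against 295.996, 237 and 207 in AG_1, AG_2 and AG_3. Here every tumour library lay below every AG library. Dlx2 fell by 4.07 ± 0.99 in BS (limma adjusted p = 0.0136), a call that ended without AG_1 (limma adjusted p = 0.0515). The change in OB was -2.62 ± 0.99 and did not pass (limma adjusted p = 0.0705), but it was called without OB_257 (-3.64, limma adjusted p = 0.0112). It was also called with sample weights estimated per group (limma adjusted p = 0.0267) and without BS_287, which shares the variance of the fit (limma adjusted p = 0.0342).

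Dlx6, the partner of Dlx5 in a second Dlx pair, had 108, 20.0 and 165 normalized reads in OB_257, OB_287 and OB_295 and 66.3, 0 and 4.93 in BS_287, BS_295 and BS_296, against 5.003, 7.88 and 5.44 in AG. All OB libraries lay above AG, as did BS_287, while BS_295 had 0 reads. BS_296, with 5 reads, was near AG, with 6, 8 and 5 reads in AG_1, AG_2 and AG_3. The change was 3.37 ± 1.40 in OB (limma adjusted p = 0.0936) and 0.07 ± 1.40 in BS (limma adjusted p = 0.975), and neither passed. In OB it was called by DESeq2 (adjusted p = 0.00903), in a limma fit of OB and AG alone (adjusted p = 0.0183) and with sample weights per group (limma adjusted p = 0.0368). It was also called without BS_287 or BS_295, which share the variance of the fit (limma adjusted p of 0.0228 and 0.0428). The sign in BS turned without BS_287 (-1.52, limma adjusted p = 0.291). Dlx5, named after its values were seen, had 0 to 4.93 normalized reads in every library and was under the filter, with 2 annotated transcripts of which 1 is in the table. In the GENCODE annotation Dlx6os1 and Dlx6os2 lie over Dlx6 on the other strand, as Dlx1as lies over Dlx1 and Gad1os over Gad1. The kit marks strand but the strand setting of the counting is not given in the sources used here, so that reads of Dlx1, Dlx6 and Gad1 and of their antisense partners may not be parted. Dlx6os1 had at most 4.19 normalized reads. Dlx1as had 18.8, 6.66 and 4.35 normalized reads in OB_257, OB_287 and OB_295 and 36.1, 0 and 4.93 in BS_287, BS_295 and BS_296, against 11.7, 7.88 and 4.36 in AG, and was highest in the same 2 tumour libraries as Dlx1.

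Npas1, a bHLH-PAS factor of interneuron progenitors, varied little within the tumour groups. It had 42.0, 52.3 and 63.0 normalized reads in OB and 50.3, 39.5 and 27.6 in BS, against 14.2, 13.8 and 7.62 in AG. Every tumour library exceeded every AG library, and OB_257 and BS_287 did not stand apart. Npas1 rose by 2.08 ± 0.39 in OB (limma adjusted p = 0.00411), or 4.42-fold in the means, and by 1.65 ± 0.39 in BS (limma adjusted p = 0.0127), or 3.30-fold. The call in BS ended without AG_3 (1.38, limma adjusted p = 0.0567).

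The glutamate decarboxylase genes went opposite ways. Gad1 had 4.42, 114 and 21.7 normalized reads in OB_257, OB_287 and OB_295 and 5.87, 175 and 61.1 in BS_287, BS_295 and BS_296, against 0 in all 3 AG libraries. Gad1 was detected in every tumour library and was lowest in OB_257 and BS_287, the libraries highest in Dlx1. It was at least 16.1-fold higher in OB (limma adjusted p = 0.0269) and at least 27.7-fold higher in BS (limma adjusted p = 0.0140) against the floor of 3 reads per library. Both bounds rest on 1 library, and are 4.50-fold without OB_287 and 11.5-fold without BS_295. In OB the call ended without AG_1, AG_2, AG_3, OB_287 or OB_295 (limma adjusted p from 0.0628 to 0.0768) and with a pseudocount of 5 (limma adjusted p = 0.0970). As Gad1 was at 0 in all 3 AG libraries, leaving 1 of them out did not move its change. Without AG_1 the change in OB was 4.60 ± 1.59, against 4.60 ± 1.32 with all libraries. Calls over all genes in OB against AG also fell there, from 3695 to 2508.

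Gad2 had 1.11, 2.85 and 0 normalized reads in OB and 0, 0 and 31.5 in BS_287, BS_295 and BS_296, against 50.9, 59.1 and 52.3 in AG. BS_296 was the single tumour library with more than 3 normalized reads of Gad2, and it also held Gad1, while AG held Gad2 without Gad1. The change of Gad2 was -4.77 ± 1.25 in OB (limma adjusted p = 0.0182) and -4.11 ± 1.25 in BS (limma adjusted p = 0.0338). The call in OB ended without AG_1, AG_2, AG_3 or OB_295 (limma adjusted p from 0.0552 to 0.0603). In BS it ended without AG_1, AG_2, AG_3, BS_287 or BS_295 (limma adjusted p from 0.0872 to 0.100), in a fit of BS and AG alone (limma adjusted p = 0.0518) and in both count tests (edgeR adjusted p = 0.211, DESeq2 adjusted p = 0.257).

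**Figure D2:**
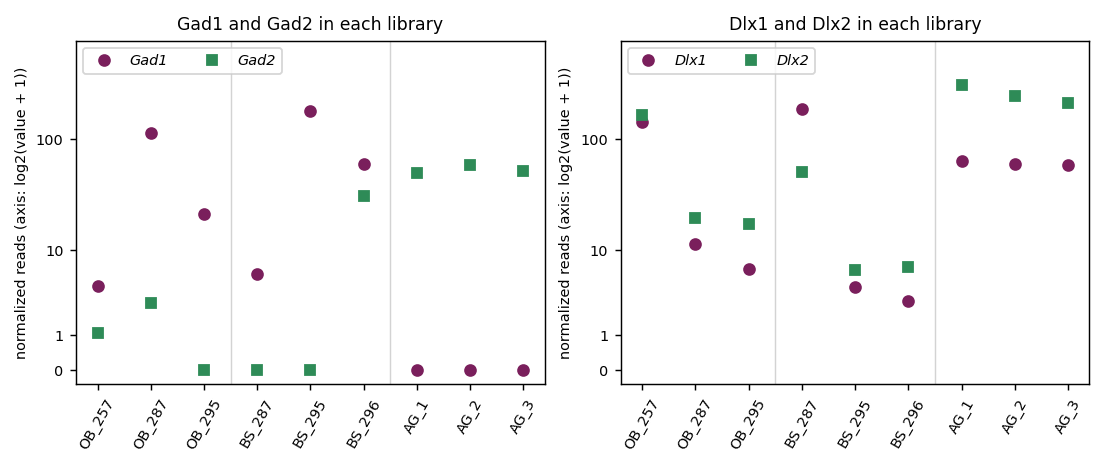
Normalized reads (vertical axis, log2(value + 1) scale) of Gad1 with Gad2 (left) and of Dlx1 with Dlx2 (right) in each library along the horizontal axis, OB first, then BS and AG, where circles are the first gene and squares the second. AG holds Gad2 and no Gad1, 5 of 6 tumour libraries hold Gad1 and at most 2.85 normalized reads of Gad2, and Dlx1 is highest in BS_287 and OB_257.

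The order of levels by group mean was OB, BS, AG for Npas1 and Dlx6, BS, OB, AG for Gad1, and AG first for Dlx2, Sp8, Lhx8 and Gad2. Dlx1 averaged 53.5 ± 77.2 normalized reads in OB, 63.4 ± 103 in BS and 61.4 ± 2.43 in AG (SD, n = 3 each), and its groups overlapped. OB and BS overlapped in all 8 genes, while 5.36% of all genes were higher and 4.63% lower in OB with no overlap. The difference of OB and BS ran from -0.80 ± 1.32 for Gad1 to 3.30 ± 1.40 for Dlx6, with limma adjusted p from 0.504 to 0.930. The Dlx6 difference is the largest of these, at 97.8 ± 73.2 normalized reads in OB against 23.7 ± 36.9 in BS. The groups did not overlap with AG for 7 genes in OB, 3 of them higher (27.5% of all genes) and 4 lower (30.8%). In BS they did not overlap for 6 genes, 2 higher (26.7% of all genes) and 4 lower (31.8%).

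**Figure D3:**
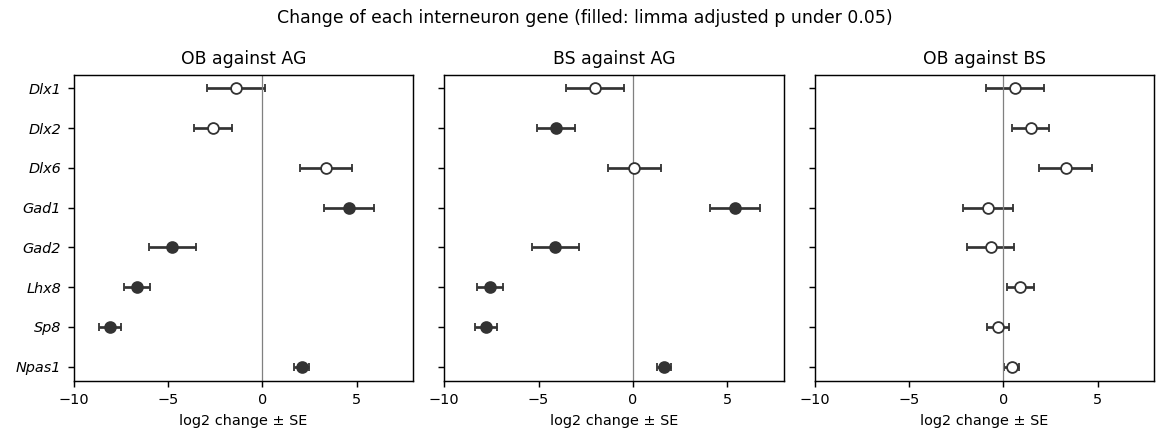
Log2 change (horizontal axis, with SE) of the 8 genes in olfactory bulb tumour cells against astroglia, brainstem tumour cells against astroglia, and olfactory bulb against brainstem tumour cells, where filled points have a limma adjusted p under 0.05. Sp8, Lhx8 and Gad2 lie left of 0 and Gad1 and Npas1 right of it in both comparisons with AG, and no point is filled in OB against BS.

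The spread within the tumour groups was wide for most of these genes. Dlx6 ranged over 6.07 log2 units in BS and Dlx1 over 5.54 in BS and 4.25 in OB, beside a median range of 0.89 in BS and 0.92 in OB over all genes tested. Npas1 ranged over 0.57 in OB and 0.84 in BS. In AG the 8 genes ranged over 0 to 0.82, beside a median of 0.22.

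Genes were also compared by profile, as the root mean square difference of centred log2 values over the 9 libraries. Among the 8 genes the closest pairs were Sp8 with Lhx8 (1.08) and Dlx1 with Dlx2 (1.14). Over all genes tested, the nearest to Lhx8 was the villin-like gene Vill (0.07), with 6.63, 0 and 0 normalized reads in OB, 0 in BS and 189.5 to 206 in AG. The nearest to Dlx2 was Card10 (0.47), to Sp8 Pappa2 (0.59), to Dlx1 Zan (0.61), to Gad2 Tmem200c (0.64), to Gad1 Lrrn4 (0.68) and to Dlx6 Fbxo32 (1.06). Npas1 lay closest to Gm28043 (0.24), A930005H10Rik (0.26) and Rpf2 (0.28).

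Of 22 other factors of the ventral forebrain and interneuron fate, 18 were in the table and 13 were tested. In OB 4 were higher and 3 lower (median log2 change 0.73), and in BS 2 were higher and 2 lower (median 0.44), which in BS is close to the shares of all genes called. Those shares were 16% higher and 19% lower in OB, and 15.6% higher and 19.5% lower in BS. Etv1, a factor of olfactory bulb interneurons among other neurons, rose in both comparisons, with 23.2, 70.4 and 191 normalized reads in OB and 24.3, 55.5 and 37.4 in BS, against 0.834, 0 and 0 in AG. Sox6, a factor of medial ganglionic eminence interneurons and oligodendrocyte precursors, averaged 113 in OB and 49.8 in BS, against 4.66 in AG, and was called in both. Vax1 and Gsx1, ventral progenitor factors at 0 reads in AG, rose in OB and were not called in BS, and the difference of OB and BS itself was not called for either. The call of Sox6 in BS ended without AG_1, AG_2 or AG_3, in a fit of BS and AG alone and with quantile normalization (limma adjusted p from 0.0504 to 0.106). That of Gsx1 in OB ended without AG_1, AG_2, AG_3, OB_287 or OB_295 and with a pseudocount of 5 (limma adjusted p from 0.0540 to 0.120).

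Six3, a factor of the anterior forebrain and striatal neurons, averaged 8.77 normalized reads in OB and 3.71 in BS, against 288 in AG, and Zfhx3 averaged 270.3 in OB and 124 in BS, against 3352 in AG. Both fell in both comparisons, and Tshz1 fell in OB. Tshz1 was not called without AG_1 or AG_3 (limma adjusted p of 0.0538 and 0.0512). Sp8, Lhx8 and Six3 were all present in AG and low in tumour cells.

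Genes that break down GABA did not follow Gad2, and no tested gene that moves it was called. Of 7 genes of both kinds 5 were in the table and 4 were tested. In OB 2 rose and 0 fell (median log2 change 3.05), and in BS 2 rose and 0 fell (median 2.996). Over all genes, 16% were called higher in OB and 15.6% in BS. Abat, GABA transaminase, averaged 80.9 normalized reads in OB and 62.1 in BS, against 7.98 in AG (limma adjusted p of 0.000131 and 0.000274). Aldh5a1, the next enzyme of GABA breakdown, averaged 1345 in OB and 1658 in BS, against 173 in AG (limma adjusted p of 0.000231 and 0.000135). Slc6a11, a GABA transporter of astrocytes, was tested and not called and is named after its values were seen. It had 0, 832 and 8467 normalized reads in OB and 0.839, 3238 and 2671 in BS, against 0 in AG. It was at 0 in OB_257 and lowest of the BS libraries in BS_287, the libraries lowest in Gad1.

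Of 19 interneuron subtype markers and migration receptors 7 were in the table and 4 were tested. In OB 1 rose and 1 fell, and in BS 2 rose and 1 fell (median log2 changes 1.44 and 1.00, or 1.04 and 1.03 with genes at 0 reads set to their bound). Beside this, 16% of all genes were called higher and 19% lower in OB, and 15.6% and 19.5% in BS. Erbb4, a neuregulin receptor of interneurons and oligodendrocyte precursors, had 2098, 1732 and 2747 normalized reads in OB and 575, 2289 and 1131 in BS, against 0 in AG, and rose in both (limma adjusted p of 2.23e-06 and 2.96e-06). Nos1 fell in both comparisons, with 8.84 to 33.7 normalized reads in OB and 6.40 to 63.1 in BS, against 174 to 221 in AG. The Nos1 call in OB ended without AG_1 or AG_2 (limma adjusted p of 0.0544 and 0.0557). Calb2, calretinin, rose in BS, where BS_287 had 390.0 normalized reads, BS_295 10.7 and BS_296 20.7, against 0 in AG. Its call ended with a pseudocount of 5 and without AG_1, AG_2 or AG_3 (limma adjusted p from 0.0502 to 0.0568).

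**Figure D4:**
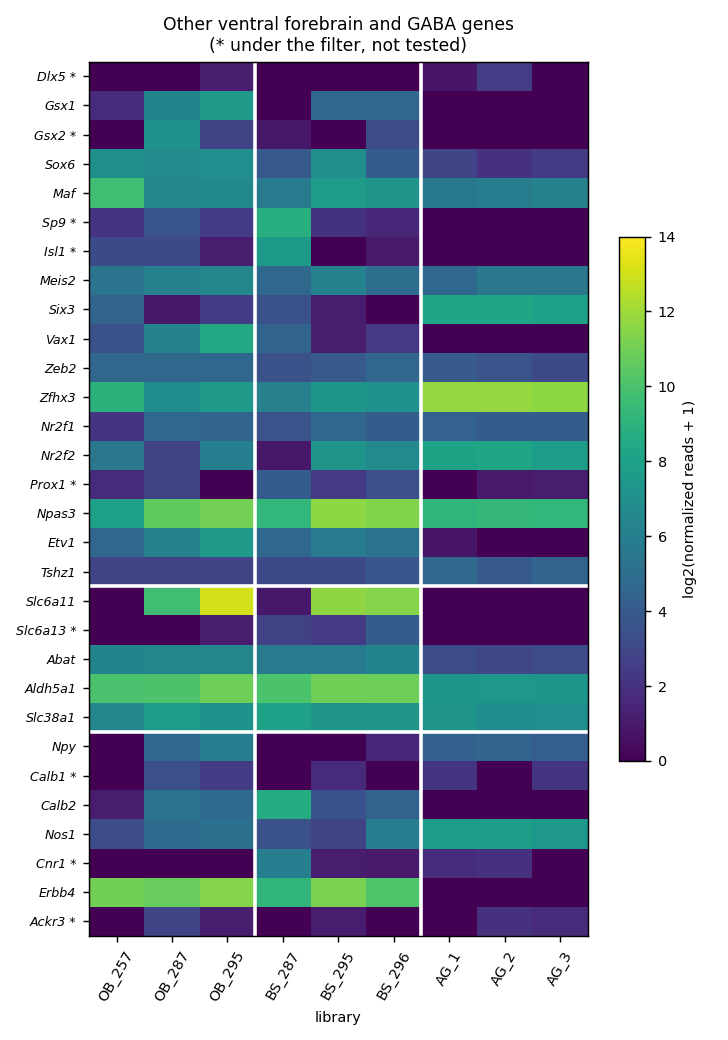
Log2(normalized reads + 1) as colour for other genes of the ventral forebrain (top), of GABA transport and breakdown (middle) and of interneuron subtypes (bottom) in each library, OB first, then BS and AG; stars mark genes under the filter. Six3 and Zfhx3 are brightest in AG, Slc6a11 is at 0 in OB_257 and AG, and Sp9 and Isl1 are brightest in BS_287.

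Of 15 genes of the dorsal forebrain and glutamatergic neurons 12 were in the table and 6 were tested. In OB 0 passed, and in BS Tbr1, Neurod1 and Emx2 rose (medians 1.71 in OB and 1.94 in BS), beside 15.6% of all genes called higher in BS. The difference of OB and BS was not called for any of them. Tbr1 lay above AG in every OB library too (1.74, limma adjusted p = 0.0530). Neurod1, a factor of glutamatergic neurons, had 4.42, 216 and 3.26 normalized reads in OB and 4202, 12.8 and 129 in BS, against 0 in AG. The Neurod1 call ended with a pseudocount of 5 and without AG_1, AG_2, AG_3 or BS_296 (limma adjusted p from 0.0521 to 0.0677), and that of Tbr1 without AG_1, AG_2, AG_3 or BS_296 (limma adjusted p from 0.0522 to 0.0924). Of 7 genes of forebrain cholinergic neurons, the cells that depend on Lhx8, 4 were in the table. Ngfr was the only one tested and did not pass (-1.48 in OB and 0.85 in BS). Of 6 regional genes 4 were tested. Gbx2 rose in both comparisons, and En1 and En2 fell in OB, beside 16% of all genes called higher and 19% lower in OB. En1 lay below AG in every BS library too, but was not called there (-5.18, limma adjusted p = 0.0884). The difference of OB and BS was not called for En1 or En2. The calls of Gbx2 ended without AG_2, AG_3 or 1 tumour library, OB_295 in OB and BS_296 in BS (limma adjusted p from 0.0535 to 0.0656), that of En1 ended by edgeR (adjusted p = 0.0611) and that of En2 without AG_1 (limma adjusted p = 0.0557).

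Markers of several other cell types differed between tumour cells and AG as well. The 7 neuron markers in the table summed to 4607 to 9613 normalized reads in OB and 4486 to 6635 in BS, against 1062 to 1089 in AG. Rbfox3 and Snap25 had 0 reads in AG and were low in tumour cells too, at most 13.4 and 6.71 normalized reads. Elavl3, Syp and Map2 were called higher in both comparisons, and Tubb3 in neither. Stmn2, under the filter, averaged 1.64 in OB and 47.9 in BS, against 4.80 in AG. The 5 oligodendrocyte precursor markers summed to 35268 to 55129.9 in OB and 33881 to 77544 in BS, against 16.3 to 20.0 in AG, where Olig2 had 0 reads. Olig1, Olig2 and Cspg4 were called higher in both comparisons. Sox10 was called in OB and not in BS, nor between OB and BS. Pdgfra was called in neither comparison, with 1.11 to 97.8 in OB and 2.52 to 41.6 in BS, against 3.94 to 8.71 in AG. The 7 pericyte and fibroblast markers summed to 113 to 2433 in OB and 1565 to 8378 in BS, against 88435 to 102249 in AG, and Dcn had 0 reads in all tumour libraries. This list went both ways: Col1a1, Col1a2, Acta2 and Dcn fell in both comparisons, while Cspg4, also a precursor marker, rose and made up most of the tumour sums (98.4 to 2288 in OB and 1557 to 8338 in BS, against 5.44 to 10.8 in AG). The 4 endothelial markers summed to 11.1 to 212 in OB and 28.6 to 242 in BS, against 921 to 1035 in AG, where Cdh5 and Cldn5 had 0 reads. Nearly all of the AG sum was Flt1, while Kdr averaged 99.3 in OB and 113 in BS, against 9.51 in AG, and was not called. The 2 ependymal markers summed to 77.4 to 228 in OB and 67.1 to 209.9 in BS, against 2071 to 2551 in AG, and Tmem212 had 0 reads in all tumour libraries. The 3 microglia markers summed to 68.5 to 81.8 in OB and 32.0 to 103 in BS, against 59.2 to 71.0 in AG. Of these, Tmem119 was called lower in BS, at 0.839 to 1.07 against 19.2 to 27.2 in AG (limma adjusted p = 0.00786). It was not called in OB. The 7 astrocyte markers summed to 6731 to 34882 in OB and 17386 to 30920 in BS, against 8602 to 8693 in AG. Different genes made up these sums, mostly Gja1 and Sox9 in AG and mostly Slc1a3 in tumour cells. OB_257 was the exception, with 6616 normalized reads of S100b and 88.4 of Slc1a3. In OB S100b was called higher and Gja1 lower, and in BS 0 were called. The microglia sums overlapped AG in OB and BS, and the astrocyte sums overlapped it in OB. The part of these cell types in the changes of the 8 genes was not tested.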

How the data were processed

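Per the labels, libraries were made from total RNA with a stranded TruSeq kit. Per the submitters' processing notes, the tools were DESeq2 (1.20.0), Subread's featureCounts (1.6.2), HISAT2 (2.1.0) and bcl2fastq (1.8.4), and the build was mm9, with no roles given. The deposited signal values are reads per RefSeq transcript divided by 1 size factor per library (0.905 to 1.20). Undoing the factor gave whole reads for 100% of values, within 0.05 reads. Of 16260 rows, 17 had no name and were left out. The rest were summed per symbol to 14771 genes (Gad1 has 2 rows). Rows of genes with 1 annotated transcript had a median of 258 normalized reads, against 12.6 with 2 transcripts, so a low value of a gene with several transcripts, in all libraries, is not read as low expression.

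limma 3.58.1 in R 4.3.3 was run on log2(value + 1) in 1 fit of all 9 libraries with a variance trend, two-sided, with Benjamini-Hochberg adjustment over 10576 genes. Among the alternatives, the recovered reads were tested with DESeq2 (1.42.0) and with edgeR (4.0.16), and edgeR called 3724 genes between OB and AG, 3679 between BS and AG, and 0 between the tumour sites. The method was also run on simulated reads that had the same spread between libraries in every group. The groups here differ in spread, so that run does not bear on genes such as Dlx1, Dlx6 or Gad1. The members, gene lists and tests were chosen with earlier results of these data known. Some genes of the lists are not reported here, and the counts leave them out. The rule for named genes was the 8 members, genes called in the lists, and the 3 nearest profiles, of which mostly the nearest is printed. Slc6a11, Ngfr, Dlx5, Sp9, Isl1, Gsx2, antisense genes, Kdr, Tubb3, Stmn2, Pdgfra and Sox9 were named after their values were seen. The cell type markers Gfap, Aqp4, Aldh1l1, Slc1a3, Rbfox3, Snap25, Cdh5 and Cldn5 were not called or not tested, and are also named outside this rule. Intervals and floors describe the error of counting alone, as PCR copies were not told apart by molecular identifiers. Figures used matplotlib 3.10.9.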

Additional observations from a re-analysis of the deposited data

How the results depend on the processing

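Each comparison was repeated with other pseudocounts, filters, scalings, variance models and tools, with the highest row per gene, and without each library of all 3 groups. Leaving out libraries of the group outside a comparison, which shares the variance, was added after seeing the data. Of the values of the 8 genes under these alternatives, 162 of 183 in OB against AG, 164 of 183 in BS against AG and 178 of 191 in OB against BS kept their direction and their side of the threshold. Sp8 and Lhx8 in both comparisons with AG, Npas1 in OB and Gad1 in BS kept their calls in all of them. Without 1 library, the number of the 8 genes called ran from 3 to 7 in OB against AG (1 to 3 higher, 2 to 4 lower), with 7 without BS_287, and from 4 to 6 in BS against AG (1 to 2 higher, 2 to 4 lower). A pseudocount of 5 left 1 gene called higher in OB. Without both BS_287 and OB_257, an alternative added after seeing the data, all 8 were called in OB against AG, 5 of them lower. This count decides nothing, since the libraries left out were those where Dlx1 lay above AG. Calls over all genes rose in that fit as well, to 4781 (2270 higher and 2511 lower), from 3695 with all libraries.

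DESeq2 gave no adjusted p for Dlx1. Directions of the 8 genes turned only for changes that were not called. Dlx6 in BS against AG was -0.20 with a pseudocount of 0.5, -0.22 with quantile normalization, -0.04 without AG_1 and -1.52 without BS_287 or without both libraries (-1.52 to 1.51 over the left-out libraries), and Dlx1 there was 0.12 by edgeR. In OB against BS, Dlx1 was -0.26 by edgeR and, with each library left out, ran from -0.70 without OB_257 to 2.38 without BS_287. Over the same left-out libraries Gad1 ran from -2.11 to 0.28, Gad2 from -1.50 to 1.01 and Sp8 from -0.86 to 0.15. The causes were not tested.

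OB_287 and BS_287 carry the same number in their titles, as do OB_295 and BS_295, with no label saying what a number stands for. Deviations from the group means correlated at 0.069 for OB_287 with BS_287 and 0.299 for OB_295 with BS_295, while OB_295 with BS_296 reached 0.291 and OB_257 with BS_287 0.216 with no shared number. With the number as a replicate block, 0 genes were called in OB against BS, and the values were -1.69 for Dlx1, -0.012 for Dlx2, 0.56 for Gad1 and 0.97 for Gad2.

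Over all genes, the calls without 1 library ran from 2502 to 4164 in OB against AG (1109 to 1921 higher, 1393 to 2243 lower) and from 2427 to 4353 in BS against AG (1030 to 1959 higher, 1397 to 2394 lower), fewest without an AG library. Single calls that ended without an AG library are to be read beside this fall. In OB against BS they ran from 0 to 96 (0 to 62 higher, 0 to 34 lower), most without OB_287. There, DESeq2 called 233 genes (163 higher, 70 lower), a pseudocount of 0.5 called 4 (4 higher), a pseudocount of 5 called 6 (5 higher, 1 lower), quantile normalization called 3 (2 higher, 1 lower), and the fit with no trend called 2 (2 higher). Without both BS_287 and OB_257 it was 69 (46 higher, 23 lower). More genes were called higher than lower against AG by edgeR (1960 and 1764 in OB, 1899 and 1780 in BS) and by DESeq2 (2235 and 2046 in OB, 2193 and 2077 in BS). Upper-quartile rescaling moved the median change of all genes to 0.24 in both comparisons with AG, and changed no call of the 8 genes. Levels of a few reads, such as those of Sp8, Lhx8 and Gad2 in tumour cells, are limited by depth.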

Other observations

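The ratio of Dlx1 to Dlx2, taken within each library, was chosen after the values were seen. It was 0.878, 0.571 and 0.375 in OB_257, OB_287 and OB_295 and 3.52, 0.667 and 0.429 in BS_287, BS_295 and BS_296, against 0.217, 0.254 and 0.289 in AG_1, AG_2 and AG_3. All 6 tumour libraries lay above all 3 AG libraries, with geometric means of 0.757 in tumour cells and 0.252 in AG. A two-sided exact permutation test over libraries, with OB and BS pooled, gave p = 0.0595, where the smallest p it allows is 0.0119. As the ratio was picked from these same values, this test decides nothing. Dlx1 reads may also hold reads of Dlx1as. BS_295 and BS_296 rest on 4 and 3 reads of Dlx1, and their exact 95% counting intervals run from 0.138 to 2.81 and from 0.0715 to 1.88. In BS_287 the interval runs from 2.64 to 4.74.

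Sp9 and Isl1, factors of ventral forebrain neurons that did not pass the filter, had 451 and 197 normalized reads in BS_287. The other 5 tumour libraries had 1.97 to 11.4 of Sp9 and 0 to 7.74 of Isl1, and AG had 0 reads of both. Gsx2, a factor of lateral ganglionic eminence progenitors, had 133 normalized reads in OB_287 and 0 to 8.87 elsewhere.

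The 2 transcripts of Gad1 were read in unequal shares. NM_001312900 held 9.17% of 120 Gad1 reads in OB_287 and 10.4% of 164 in BS_295, and 57.1% of 7 reads in BS_287, where the exact 95% counting interval runs from 18.4% to 90.1%. Gad1os, on the other strand of Gad1, had 1.11, 11.4 and 0 normalized reads in OB and 8.39, 17.1 and 15.8 in BS, against 1.67 to 3.94 in AG.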
